A study of Mus musculus with 4 samples.

Results

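The MHC class II presentation genes are the chains of the class II molecule (H2-Aa, H2-Ab1, H2-Eb1), the peptide-loading catalysts (H2-DMa, H2-DMb1, H2-DMb2), their inhibitors (H2-Oa, H2-Ob), the invariant chain Cd74 and the transactivator Ciita. Their RNA was followed in the colonic mucosa of C57BL/6 animals aged 90 days (P90, young adult) or 30 days (P30, juvenile), on 4 two-colour oligonucleotide arrays named a, b, e and k. Each array received 1 P90 and 1 P30 total RNA of mucosa sheared from the colon with a microscope slide, with P90 in Cy3 on a, b and k and in Cy5 on e. The members were taken as every gene probe whose accession maps to one of the 10 symbols in RefSeq (GRCm38.p6). Of the 10 genes, 9 were found, with 14 of 41174 gene probes; H2-Eb1 was not analysed here. Both ages share strain and tissue, and no treatment is labelled. The 4 comparisons are labelled independent, but no label tells if an animal gave RNA to more than 1 array, so p-values measure the spread between these 4 pairs, which may be technical.

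Class II molecules are heterodimers of an alpha and a beta chain that carry peptides from endocytosed protein to CD4 T cells. The alpha and beta chains assemble on the invariant chain, which blocks the groove and directs them to endosomes, where cathepsins trim it to a short peptide (CLIP). The DM heterodimer exchanges CLIP for other peptides and the DO heterodimer holds DM back, mainly in B cells and some dendritic cells. Ciita is the coactivator on which transcription of these genes depends; it does not bind DNA itself but docks on RFX, CREB and NF-Y at conserved X and Y boxes. In the gut, class II is carried by dendritic cells, macrophages and B cells and, after interferon gamma, by epithelial cells, and mice of the C57BL/6 background make no I-E alpha chain, so that I-A (H2-Aa with H2-Ab1) is their class II molecule.

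The promoter stretches that carry the shared X and Y boxes are shown first, because these boxes are the known docking sites of Ciita at class II genes, and Ciita is a member. RefSeq (GRCm38.p6) gave a promoter of 300 bases (250 before to 50 after the start) for 7 members: H2-Oa, H2-DMa, H2-DMb2, H2-DMb1, H2-Ob, H2-Aa and H2-Eb1. The letters TGATTGG (a Y box, the NF-Y site CCAAT read on the other strand) and AGNAAC (within the X box, the RFX site) were searched on the gene's strand, with AGNAAC at most 40 bases before TGATTGG. The Y box letters were found in 6 of the 7 members, against 7.82% of 32851 mouse promoters, and the pair in this order in 4 members, against 0.399%; AGNAAC alone is in 48.1% of promoters. Each line below runs 5′ to 3′ on the gene's strand for 67 bases and ends shortly before the start site, with the matched letters in capitals.
H2-Oa, chr17:34092289-34092355, plus strand: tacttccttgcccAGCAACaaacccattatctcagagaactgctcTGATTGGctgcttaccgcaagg
H2-DMb1, chr17:34153083-34153149, plus strand: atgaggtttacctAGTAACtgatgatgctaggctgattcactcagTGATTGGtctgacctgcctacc
H2-DMb2, chr17:34145112-34145178, plus strand: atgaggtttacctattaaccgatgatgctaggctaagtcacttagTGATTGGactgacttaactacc
H2-Ob, chr17:34238801-34238867, plus strand: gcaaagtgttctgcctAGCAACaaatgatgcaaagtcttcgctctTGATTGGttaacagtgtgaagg
H2-Aa, chr17:34287852-34287918, minus strand: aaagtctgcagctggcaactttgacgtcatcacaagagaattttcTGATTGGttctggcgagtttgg
H2-Eb1, chr17:34305761-34305827, plus strand: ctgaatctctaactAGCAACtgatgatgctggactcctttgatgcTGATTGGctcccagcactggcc

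The pair was separated by 26 bases in H2-Oa and H2-DMb1, by 25 in H2-Eb1 and by 23 in H2-Ob. H2-Aa and H2-DMb2 held TGATTGG without the other letters at that distance, and the 2 H2-DMa promoters of the table held no such pair. The stretches of H2-DMb1 and H2-DMb2, neighbouring paralogs, were the same at 58 of 67 positions. All other pairs shared 18 (as H2-Aa and H2-Eb1) to 31 (H2-Oa and H2-Aa), with H2-DMb1 and H2-Ob at 25. A match describes the letters only and does not show a bound site.

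Across the 4 arrays none of the 7 tested class II genes differed between P90 and P30 beyond the spread between arrays. Read by the brightest probe of each gene, 0 of 7 had the same direction throughout. Over all genes tested this share was 14.1%, so the members' count is near it. It also depends on the probe, as a dimmer probe of H2-DMb1 was above 0 on all 4 arrays. Of the 9 genes with probes, 7 passed the filter on dim probes (well above background in at least 3 arrays at either age): H2-Aa, H2-Ab1, Cd74, H2-DMa, H2-DMb1, H2-Oa and Ciita. Of these, 0 of 7 passed limma's moderated test against 0 at an adjusted p of 0.05 (Benjamini-Hochberg over 20822 genes), and 0 had an unadjusted p under 0.05. Over all genes tested the shares were 0% and 7.89%, and the smallest adjusted p of any gene was 0.617. The means of 6 of 7 members lay above 0, against 45.6% of genes, and their median was 0.14 against -0.019 over all genes. What the members shared was a profile over arrays: on array b 6 of 7 lay above 0 (48.2% of genes), on e 7 of 7 (49.6%), on a 2 of 7 (46%) and on k 0 of 7 (46.3%). The member medians on a, b, e and k were -0.039, 0.93, 0.29 and -0.56: the median member was higher at P90 in the RNA pair of array b and lower in that of k.

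**Figure D1:**
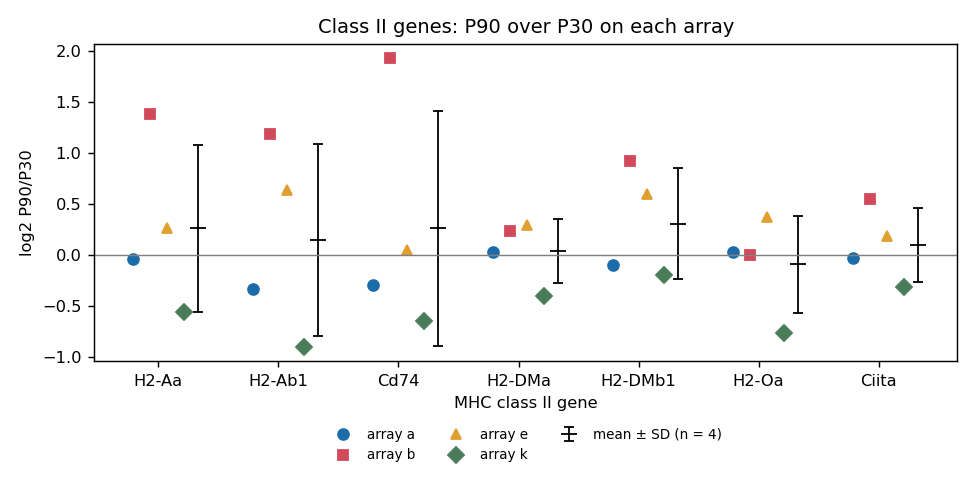
The log2 P90/P30 of the 7 tested class II genes, with 1 symbol per array and the mean ± SD (n = 4) as a black bar. Array b is the highest and array k the lowest for H2-Aa, H2-Ab1, Cd74, H2-DMb1 and Ciita, and every mean ± SD bar spans 0.

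Values below are the level of a probe (log2 signal per channel after loess and quantile scaling of the mean intensity, with an offset of 50 included) or the difference between levels on an array, log2 P90/P30. Levels of different probes are not compared. In whole mucosa, fewer cells of a type and less RNA per cell cannot be told apart.

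H2-Aa encodes the I-A alpha chain, and its level at P90 was 7.83, 8.48, 8.5 and 7.58 on arrays a, b, e and k, against 7.87, 7.09, 8.24 and 8.15 at P30. The ages overlapped, and the widest gap came from array b, where P30 was the lowest and P90 close to the highest. The log2 P90/P30 was -0.039, 1.38, 0.26 and -0.56, with a mean of 0.26 ± 0.82 (SD, n = 4; limma 95% confidence interval -0.53 to 1.05; adjusted p = 0.874). Its second probe, A_51_P119760, followed the same order, with -0.068, 1.004, 0.20 and -0.51.

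H2-Ab1 encodes the I-A beta chain and had 3 probes. The level of the brightest, A_52_P683598, was 10.84, 11.92, 12.54 and 10.94 at P90 on a, b, e and k, against 11.18, 10.73, 11.91 and 11.85 at P30. P90 was above P30 on b and e and below it on a and k. On the ratio scale, log2 P90/P30 was -0.34, 1.19, 0.63 and -0.91, with a mean of 0.14 ± 0.94 (SD, n = 4; limma 95% confidence interval -0.75 to 1.03; adjusted p = 0.952).

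H2-Ab1 also allowed the spread within an array to be set against the spread between arrays, since probe A_51_P215237 is printed in 10 spots, of which 9 were used on each array (the scanner software marked the same spot as an outlier on all 4). Over those spots the log2 P90/P30 was 0.11 on a (SD between spots 0.061), 1.30 on b (0.021), 0.64 on e (0.037) and -0.43 on k (0.073). The SD between the 4 array means was 0.74, and the spot values of no array overlapped those of another. The spots of an array share labelling and hybridisation, so their spread holds the spot-to-spot error alone. The third probe, A_51_P215242, gave 0.26, 0.91, 0.60 and -0.24. The probes disagreed in sign on array a, where A_52_P683598 was below 0 and the other 2 were above it, and had the same sign on b, e and k.

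**Figure D2:**
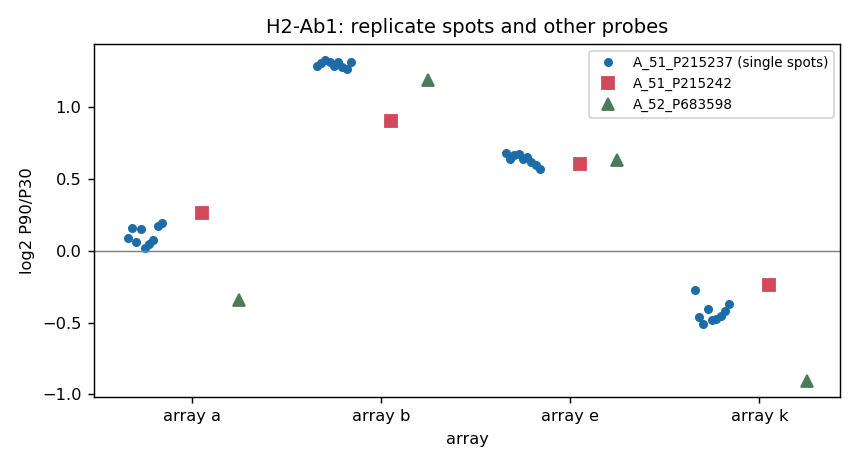
The log2 P90/P30 of the single spots of the H2-Ab1 probe A_51_P215237 (blue, 9 spots per array) and of the other 2 H2-Ab1 probes, by array. Spots of an array lie close together, with SDs from 0.021 to 0.073, while the arrays lie between -0.43 and 1.30.

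Cd74, the invariant chain that escorts new class II molecules, varied most among the members. Its level at P90 was 10.32, 11.96, 11.45 and 9.83 on a, b, e and k, against 10.61, 10.03, 11.40 and 10.48 at P30. Array b held both the highest P90 and the lowest P30 level. This gave log2 P90/P30 values of -0.30, 1.93, 0.046 and -0.65, with a mean of 0.26 ± 1.15 (SD, n = 4; limma 95% confidence interval -0.81 to 1.32; adjusted p = 0.920). Its SD was higher than that of 96.4% of genes tested.

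The loading catalyst H2-DM is made of H2-DMa and a beta chain from H2-DMb1 or H2-DMb2. H2-DMa had levels of 7.35, 7.64, 8.17 and 7.97 at P90 on a, b, e and k, and of 7.32, 7.41, 7.88 and 8.37 at P30. The pairs differed little on a, b and e, and P30 was higher on k. Its log2 P90/P30 was 0.025, 0.23, 0.29 and -0.41, with a mean of 0.036 ± 0.32 (SD, n = 4; limma 95% confidence interval -0.36 to 0.43; adjusted p = 0.978).

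H2-DMb1 had levels of 9.06, 9.57, 10.74 and 9.28 at P90 on a, b, e and k, and of 9.16, 8.65, 10.15 and 9.48 at P30. As log2 P90/P30, the differences were -0.10, 0.93, 0.60 and -0.20, with a mean of 0.30 ± 0.55 (SD, n = 4; limma 95% confidence interval -0.26 to 0.87; adjusted p = 0.751, the smallest of the members). A dimmer second probe, A_52_P146877, was above 0 on all 4 arrays, with 0.35, 0.73, 0.16 and 0.22, so the probes differed in sign on a and k. H2-DMb2 was well above background on 1 array at P90 and on 2 at P30. Its signal was 63.5 to 95.5 against a local background of 36 to 63 at P90, and no ratio is given. As H2-DMb1 and H2-DMb2 are near-identical copies, how far their probes read each other's transcript is uncertain.

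H2-Oa and H2-Ob form H2-DO, the inhibitor of H2-DM. H2-Oa had levels of 6.80, 6.89, 7.43 and 6.63 at P90 on a, b, e and k, and of 6.77, 6.90, 7.06 and 7.4 at P30. It departed from the other members on array b, where the ages were level. Its log2 P90/P30 was 0.031, -0.0052, 0.37 and -0.77, with a mean of -0.094 ± 0.48 (SD, n = 4; limma 95% confidence interval -0.61 to 0.42; adjusted p = 0.945). Its second probe, A_51_P449329, gave 0.11, 0.13, 0.20 and -0.37. H2-Ob was well above background on 1 array at each age, with P90 signals of 64 to 77.5 against a local background of 40 to 67, and no ratio is given.

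Ciita, the master coactivator, was dim but well above background in both channels on all arrays. Its level was 6.77, 7.34, 7.42 and 6.82 at P90 on a, b, e and k, and 6.81, 6.79, 7.24 and 7.13 at P30. As log2 P90/P30, this was -0.033, 0.55, 0.18 and -0.31, with a mean of 0.097 ± 0.36 (SD, n = 4; limma 95% confidence interval -0.33 to 0.53; adjusted p = 0.927). Thus Ciita followed the same order of arrays as H2-Aa, Cd74 and H2-Ab1 over a narrower range.

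**Figure D3:**
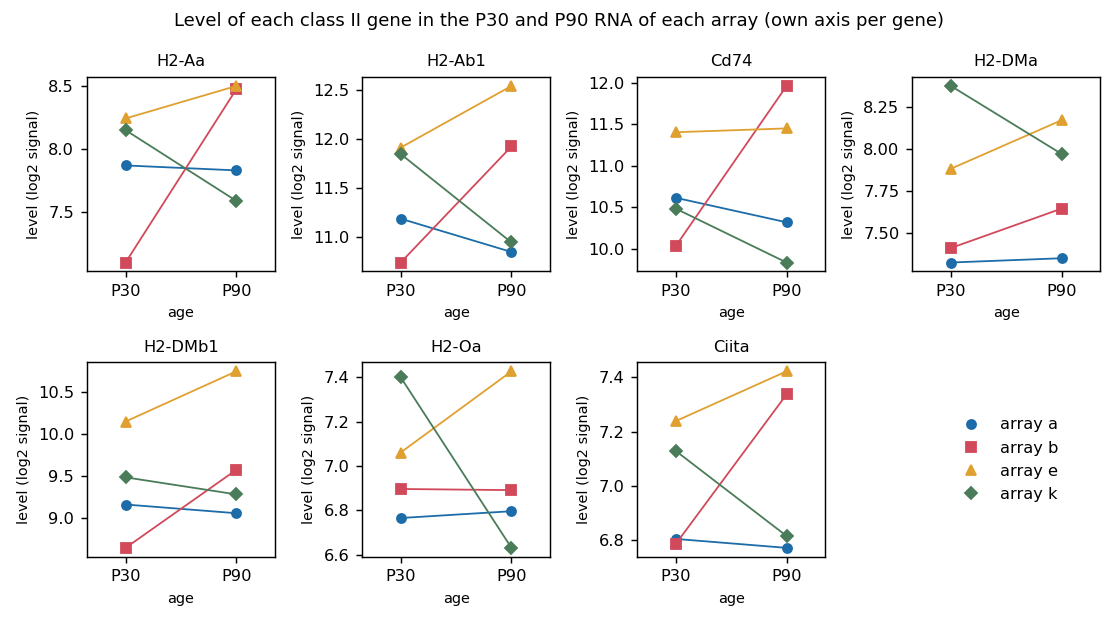
The level (log2 signal, own axis per gene) of each tested class II gene in the P30 and the P90 RNA of each array, joined by a line per array. Lines cross for every gene, array b rises for all but H2-Oa, and array k falls for all 7.

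The levels of the ages overlapped for 7 of 7 genes. The P30 RNA of array b was the lowest of the 4 P30 RNAs for 5 of 7 members, and its P90 RNA was the highest P90 RNA for 1 of 7, Cd74. The P90 RNA of array e was the highest for the other 6. The P90 range over arrays was wider than the P30 range for 5 of 7 (not for H2-Aa and H2-DMa). The median SD of log2 P90/P30 was 0.55 over the members against 0.35 over all genes.

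The shared profile was noticed after the values were seen, and is described without a test. Array b was the highest and array k the lowest of the 4 for 5 of 7 members, against 7.61% of genes, and k was the lowest for 7 of 7, against 17.9%. The whole order k, a, e, b held for 5 members (4.71% of genes). The members are not independent of each other, since they share arrays and RNA. Array b also ran against the others over the whole array: over all probes its log2 ratios correlated with those of a at r = -0.303, of e at -0.269 and of k at -0.172, whereas a, e and k correlated with each other at 0.303 to 0.582. The labelled direction was kept, as the labels give the dyes of every array. With the sign of array b turned, the means of 0 of 7 members lay above 0, with a median of -0.18, and 0 passed the test. The order of the arrays rests on that sign too: with b turned, its member median was -0.93, and b was the highest with k the lowest for 0 of 7 members (11% of genes), while b was the lowest for 5 of 7 (21.9% of genes).

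Array b decided the sign of most means. Without it the mean of 1 of 7 members lay above 0 (median -0.11), and without array k the means of 7 of 7 did (median 0.47); 0 passed the test in either case. Median centring in place of loess moved the median of all genes to -0.21, with 27.3% of genes above 0; relative to that shift the members' median was 0.074 higher and 5 of 7 members lay above it.

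Genes with the profile most like that of the members were ranked by the root mean square difference of their 4 log2 ratios from the member medians, over 13904 genes with a symbol. The nearest was Itgax (CD11c, an integrin of dendritic cells and intestinal macrophages), at a difference of 0.13, with -0.082, 1.09, 0.20 and -0.39 on a, b, e and k. Near it were Gpbp1l1, B4galnt2, Dgkg, Mefv, Fam168b and Aspa, with differences of 0.15 to 0.17. The members themselves differed from their own median by 0.23 (H2-Aa) to 0.53 (Cd74), and 29 genes (0.209%) were nearer than the nearest member. The mean of Itgax, 0.21 ± 0.64 (SD, n = 4), did not pass the test (limma adjusted p = 0.877).

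The steps upstream of Ciita were described next. Of 8 genes from interferon gamma to Ciita, 7 were tested and 0 passed; the means of 2 lay above 0 and of 5 below it, with a median of -0.27 against -0.019 over all genes. Irf1, a factor that drives the interferon-inducible Ciita promoter, was at 0.15 ± 0.34, and the feedback inhibitor Socs1 at 0.14 ± 0.44. The receptor chains Ifngr1 and Ifngr2 were at -0.27 ± 0.60 and -0.14 ± 0.57, and the kinases Jak1 and Jak2 at -0.46 ± 0.50 and -0.34 ± 0.91. Ifng itself did not pass the filter on dim probes.

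The DNA-binding partners of Ciita did not follow the members' profile on array b. Of 7 genes (Rfx5, Rfxank, Rfxap, Nfya, Nfyb, Nfyc, Creb1), 0 passed the test, and the means of 2 lay above 0. On array b their median was -0.17, with 2 of 7 above 0, where the member median was 0.93. Rfxank, a subunit of RFX, gave 1.54, -0.60, 0.87 and 0.31, with a mean of 0.53 ± 0.91. Nfyb, a subunit of NF-Y, gave -1.29, -0.048, -0.66 and -0.97 by its brightest probe, with a mean of -0.74 ± 0.53. Its other probe, A_52_P239707, gave -0.99, 0.12, -0.046 and -0.75, with a mean of -0.42 ± 0.54. Of the other subunits, Rfx5 was at -0.011 ± 0.15 and Nfyc at 0.10 ± 0.33, and differences between subunits were not tested.

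Downstream, 7 genes of antigen processing in endosomes were tested and 0 passed, with 4 means above 0 and 3 below. Their medians on a, b, e and k were 0.19, 0.27, 0.070 and -0.11. The aspartic protease Ctsd was above 0 on all arrays, at 0.23 ± 0.18, and Ctsl, a cathepsin that trims the invariant chain in thymic epithelium, was at 0.26 ± 0.56. Ctss, the cathepsin that makes CLIP in most antigen-presenting cells, was saturated at P30 on 2 arrays and is given without a ratio. Sppl2a, the membrane protease that removes the remaining Cd74 stub, gave -1.11, 1.14, -1.32 and -1.82, above 0 on b alone. The reductase Ifi30 (GILT) was at -0.075 ± 0.41 and the asparaginyl endopeptidase Lgmn at 0.0027 ± 0.71.

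Of 4 genes that set class II turnover at the cell surface, 0 passed the test. The ubiquitin ligases Marchf1 and Marchf8 were at -0.26 ± 0.43 and -0.29 ± 0.43, and Cd83, which opposes Marchf1, at 0.60 ± 0.68. Il10 passed the filter but was dim, with a mean intensity of 6.16 (log2, both channels, before quantile scaling). Its value of 0.0011 ± 0.056 therefore does not show a steady level. Of the other I-E chains, H2-Ea was not analysed here and H2-Eb2 did not pass the filter on dim probes. Among 5 tested genes of contact with T cells, 0 passed, with Icosl at 0.45 ± 0.56, Cd274 (PD-L1) at -0.28 ± 0.36 and Cd86 at -0.087 ± 0.38. The class II ligands Cd4 and Lag3 were at 0.032 ± 0.19 and 0.042 ± 0.14. Cd86, Cd4 and Lag3 were dim too, with mean intensities of 6.28, 6.55 and 6.36.

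Of 11 tested genes of the class I pathway, which loads peptides from the cytosol, 0 passed. H2-K1 (both channels, all arrays) and H2-D1 (2 arrays at P90, 3 at P30) were saturated and give no ratio. Without them (left out after the data were seen) 4 of 9 means lay above 0, and the medians on a, b, e and k were -0.57, -0.045, -0.21 and 0.096, where the members had their highest median on b and their lowest on k. B2m, the light chain of class I, gave -1.29, 0.038, -1.37 and -0.90 (mean -0.88 ± 0.65; limma adjusted p = 0.617).

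Neighbours of the members on chromosome 17 were set beside them. The genes Psmb9, Tap1, Psmb8 and Tap2 of class I loading lie between H2-DMb1 and H2-Ob in the class II region. Of 8 tested neighbours of the region, 0 lay above 0 on array b (48.2% of genes), where 6 of 7 members did. On k 6 of 8 lay above 0 (46.3% of genes), where 0 of 7 members did. The counts were alike on e, with 7 of 8 neighbours and 7 of 7 members (49.6% of genes). On a they were 3 of 8 and 2 of 7 (46% of genes). The neighbours' medians on a, b, e and k were -0.20, -0.49, 0.28 and 0.29. Under median centring 2 of 8 lay above 0 on b, with a median of -0.32, but the values on k were no longer above 0, with 1 of 8 and a median of -0.16. The member H2-Oa, at -0.0052 on b, did not stand apart from the neighbours there. Whether members and neighbours differ was not tested. Psmb9 gave -0.64, -0.83, 0.049 and -0.030, Tap1 -0.63, -0.45, -0.60 and 0.75, Psmb8 -0.57, -0.54, 0.065 and 0.096, and Tap2 0.22, -0.045, 0.34 and 0.44. None passed the test.

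**Figure D4:**
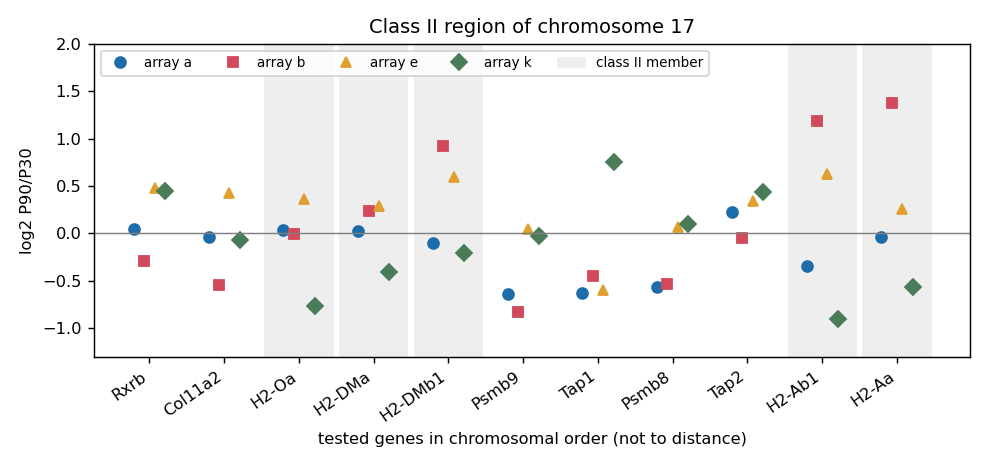
The log2 P90/P30 on each array of the tested genes around the class II region, in chromosomal order and not to distance, with class II members shaded. On array b the members H2-DMb1, H2-Ab1 and H2-Aa lie at 0.93 to 1.38 and the genes between them at -0.83 to -0.045. The other shaded members, H2-DMa and H2-Oa, lie at 0.23 and -0.0052 there.

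The tissue matched its label: all 11 tested markers of colonic epithelium were well above background in both channels on all arrays, and 8 of them were saturated on at least 1 array and give no ratio. Of the other 3, Epcam gave -0.40, 0.16, -0.42 and -0.71 on a, b, e and k. The chloride exchanger Slc26a3 gave -0.52, 0.38, -0.93 and -3.78, so that both were highest on b and lowest on k, as 5 of 7 members were. Cdx2, an intestinal transcription factor, gave -0.88, -0.14, -0.32 and -0.24. Macrophage markers had medians of -1.11, 0.75, -0.57 and -0.62 on a, b, e and k, with 10 of 11 genes above 0 on b and 1 of 11 on each of the others; their summed level ranged from 12.13 to 12.82 at P90 and from 12.19 to 13.12 at P30 (log2). Stromal markers had medians of -1.55, 1.06, -0.82 and -1.17, with 7 of 8 above 0 on b, and summed levels of 13.52 to 15.20 at P90 and 14.68 to 16.40 at P30. On a, b, e and k the collagen Col3a1 gave -4.41, 1.37, -2.36 and -4.41, and Col1a2 gave -4.23, 1.53, -2.53 and -3.21. Acta2, the smooth muscle actin and brightest of the list, gave -0.12, -0.56, 1.0003 and -0.33. Both list medians were above 0 on b, as the members' was, and below 0 on e, where 7 of 7 members were above it. With array b turned, the medians there were -0.75 for macrophage and -1.06 for stromal markers, so both were below 0 on all 4 arrays.

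Plasma cell markers had medians of 0.043, 0.66, 0.55 and -0.16 on a, b, e and k, in the members' order, with 6 of 7 genes above 0 on both b and e. Jchain, the joining chain of secreted IgA, gave -0.55, 3.07, 1.69 and -2.23, in the members' order of arrays over a wider range. Mzb1 and Tnfrsf17 (BCMA), chosen after their values were seen, gave 0.043, 2.05, 0.41 and -0.16, and 0.065, 1.38, 0.55 and -0.31. Prdm1 kept that order with its values mostly below 0, at -0.81, 0.037, -0.46 and -0.87. The other 3 did not: Sdc1 (syndecan 1), the brightest, gave 0.21, -0.035, 0.73 and 0.012, Xbp1 gave -0.020, 0.64, 0.00026 and 1.09, and Derl3 gave 0.36, 0.66, 0.71 and 0.48. The summed level of the 7 plasma cell genes was 13.96 to 15.30 at P90 and 13.92 to 14.47 at P30.

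B cell markers had medians of 0.14, 0.026, 0.13 and 0.014 over 10 tested genes, with 10 of 10 above 0 on e (49.6% of genes). Summed levels were 10.42 to 10.63 at P90 and 10.11 to 10.42 at P30. Most of these markers were dim, with a median intensity percentile of 14.6 among genes tested. Cd79a and Pax5, for example, had mean intensities of 6.22 and 6.12 (log2, both channels). Medians near 0 therefore do not show that B cell RNA was steady. Blk and Bank1 did not pass the filter on dim probes. Cd79b, the B cell receptor chain, gave 0.28, 0.77, 0.81 and -1.05, and the transcription factor Spib gave 1.15, 0.026, 0.96 and 1.15. Dendritic cell markers had medians of -0.10, 0.26, 0.20 and -0.055 over 6 tested genes, with summed levels of 9.64 to 10.16 at P90 and 9.72 to 9.9995 at P30; Cd209a and Siglech did not pass the filter, and Batf3 gave -0.64, 0.51, 0.25 and -0.41. Itgae (CD103), the brightest of them, gave -0.21, 0.50, -0.17 and 0.52, and Xcr1 gave -0.056, -0.60, 0.52 and 0.022. T cell markers had medians of -0.22, 0.15, 0.22 and 0.65, and lymphoid follicle stroma of -0.34, 0.23, 0.045 and -0.29. The part of any of these cells in the members' values was not tested.

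**Figure D5:**
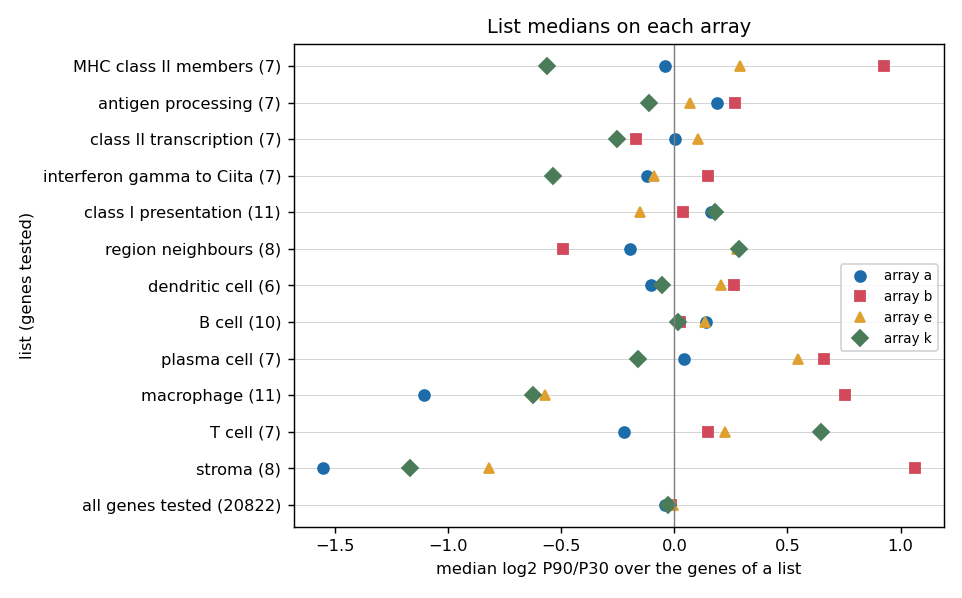
The median log2 P90/P30 of each gene list on each array, with the number of tested genes in brackets and all genes tested in the last line; the class I line includes the 2 saturated genes. The class II members spread from -0.56 on k to 0.93 on b, the plasma cell list keeps the order of b, e, a and k, and macrophage and stromal lists are above 0 on b alone.

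On the arrays as a whole, 55.6% to 69.3% of gene spots were well above background in the P90 channel and 64.6% to 71.0% in the P30 channel, and the number of arrays limits the precision. All 12 kept member probes were well above background in both channels on all arrays, and none was saturated. The P90 channel was the dimmer one on a and k, with median signals of 72 and 78 against 142.5 and 118 for P30, while both were at 114 on b. The member median was -0.56 on k and -0.039 on a, but -0.80 on a under median centring. The part of signal strength in this was not tested.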

How the data were processed

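Per the file headers, the deposited scanner output gives linear intensity and local background for each channel, a log10 ratio of processed red (Cy5) over green (Cy3) signals, and unitless marks (other). The deposited value table held log2 ratios: on arrays a, b, e and k, 80.0%, 87.0%, 86.5% and 80.5% of probes were within 0.01 of the authors' log ratio turned to P90 over P30, with column medians of 0.21, -0.17, 0.049 and 0.17. The software was Agilent Feature Extraction, version 8.5.1.1 by the submitters' processing notes but 10.5.1.1 per the file headers, which name a genomic hybridisation protocol.

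With limma 3.58.1 in R 4.3.3, median spot signals (no mean signal was used here) were corrected by normexp (offset 50) and normalized by loess (span 0.3, control spots given no weight). Outlier spots (127 to 156 gene spots per array) were left out and saturated ones kept. All ratios are log2 P90 over P30. A probe was kept if well above background in at least 3 arrays at either age (27050 probes), and the probe of highest mean intensity stood for its gene (20822 genes, 13911 with a symbol); 25097 of 41174 probes had a RefSeq name. Means over 4 arrays were tested against 0 with lmFit and eBayes over all genes, tested on simulated data, with Benjamini-Hochberg adjustment at 0.05. All arrays lay on 1 slide scanned on 1 day, so no batch could be tested.

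The members and lists were chosen with earlier results of these data known. The text names all members and their probes, any tested gene of the pathway, class I and neighbour lists, the 3 of highest intensity per marker list and the 8 genes nearest the members' median profile; exceptions are named as such, and a few genes under this rule are left unreported. The 18 alternatives covered background, normalization, filters, probes, saturation, weights, variance, dye, the sign of array b and each array left out.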

Additional observations from a re-analysis of the deposited data

How the results depend on the processing

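Under 18 alternatives 0 members passed the test (limma, Benjamini-Hochberg), with adjusted p from 0.255 to 0.99990, and 0 passed in the main analysis, where 0 had an unadjusted p under 0.05. Over all genes 1 passed with the smaller offset of 16, 2 each with processed signals, the deposited log ratio and the value table, and 0 otherwise. The member median, 0.14, ranged from -0.18 to 0.47, within the SD of its array values (0.62). Of 126 member means under the alternatives, 99 kept their sign and 27 changed it. Of the 7 members, 6 had a mean above 0; this fell to 1 with median centring, 1 with array weights and 0 with array b turned, and ranged from 1 to 7 with each array left out. With median centring Cd74 was at -0.14, H2-Aa at -0.031, H2-Ab1 at -0.24, H2-DMa at -0.22 and H2-DMb1 at -0.068. With array weights Cd74 was at -0.12, Ciita at -0.010, H2-Aa at -0.0015, H2-Ab1 at -0.10 and H2-DMa at -0.018. With array b turned Cd74 was at -0.71, Ciita at -0.18, H2-Aa at -0.43, H2-Ab1 at -0.45, H2-DMa at -0.081 and H2-DMb1 at -0.16. Ciita was at -0.0060 with the deposited log ratio and with the value table, and H2-Oa at 0.059 with a dye term. With each array left out in turn, Cd74 ranged from -0.30 to 0.56, Ciita from -0.054 to 0.23, H2-Aa from -0.11 to 0.53 and H2-Ab1 from -0.21 to 0.49, each lowest without array b (replicate 2) and highest without array k (replicate 4). H2-DMa ranged from -0.048 (without array e, replicate 3) to 0.18 and H2-Oa from -0.25 (without e) to 0.13, both highest without k. H2-DMb1 kept its sign, from 0.097 without b to 0.47 without k. Beyond their construction, the cause of these changes was not tested. Over the 13 alternatives that keep all arrays in their labelled direction, 0 or 1 member lay above 0 on k and 6 or 7 on b. On a, 0 to 4 did (median centring: 0, with a median of -0.80), and b was highest with k lowest for 5 or 6 of 7. The 1 on k was H2-DMb1 with the mean of its kept probes, then above 0 on all 4 arrays. Alternatives of filter, saturation, weights, variance and dye left the members' ratios on each array unchanged, so they could not alter these counts. The deposited log ratio and the value table gave the same ratios apart from rounding. Signal over background limits H2-DMb2 and H2-Ob among the members, and dim genes of the lists such as Il10. The 4 RNA pairs limit the rest.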
